A study of Mus musculus with 13 samples.

Results

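The genes described here build or handle sterols and fatty acids. The set holds 34 genes, of which 18 make sterols, 4 sense sterols and control the pathway, 4 move or store sterols, and 8 make, lengthen or desaturate fatty acids. Each gene was read from 1 probe set, the brightest on average of those that carry its symbol alone. This gave values for 32 of the 34 genes, among 18194 genes on the array. Acat2, a thiolase at the entry of sterol synthesis, and Soat1, which esterifies cholesterol for storage, were not analysed here because no probe set carried their symbol alone.

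RNA from CD8+ T cells was hybridised to Affymetrix arrays, 1 sample to each array. The groups were 4 arrays of BATF-/- cells at day 3, 4 of wild-type cells at day 3, 3 of BATF-/- naive cells and 2 of wild-type naive cells. Every group came from mice of the C57Bl/6 background with the P14 transgene, which gives CD8+ T cells 1 T cell receptor, and BATF-/- mice lack the AP-1 family transcription factor BATF in addition. Cells were purified by magnetic removal of other cells and taken either directly (naive, day 0) or after 3 days on plate-bound antibodies to CD3 and CD28 with 100 U/ml recombinant human IL-2. Separate animals or cultures are not named in the labels for arrays of 1 group, and no age is given, so p-values measure only the spread between these arrays, which may be technical.

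Cholesterol is made from acetyl-CoA through mevalonate, the isoprenoids, squalene and lanosterol. SREBP factors, escorted by Scap and held back by Insig proteins when sterols are plentiful, switch on the genes of this route and of fatty acid synthesis, and LXR receptors switch on the exporters Abca1 and Abcg1. T cells that leave the resting state and begin to divide are known to need new membrane lipid and to raise SREBP targets.

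Levels are log2 intensities of 1 probe set, so they are compared between arrays and not between genes. Array medians lay between 31.5 and 32.5 on the linear scale. The median SD over all genes was 0.127 among BATF-/- naive arrays, 0.0848 among wild-type naive arrays, and 0.0919 in each day 3 group. Batf itself averaged 5.98 in BATF-/- and 8.86 in wild-type cells at day 3, and 5.87 in BATF-/- and 9.28 in wild-type naive cells. On the BATF-/- day 3 arrays it was 6.77 on replicate 1, against 5.56, 5.61 and 6.0 on the others. Markers of CD8 T cells were high on every array, with list means between 11.46 and 12.09. BATF-/- naive replicate 1 stands apart: the mean of 8 neutrophil markers was 9.13 there, against 4.95 and 6.05 on the other BATF-/- naive arrays and 5.87 and 5.46 on the wild-type naive arrays. Results that involve naive cells are therefore also given without it. In bulk RNA, fewer cells of a type and less RNA per cell cannot be told apart.

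Promoter letters are shown because most of these genes moved together, and because short motifs for SREBP (TCACNCCAC), its partner NF-Y (CCAAT), Sp factors (GGGCGG), E-box factors (CACGTG) and AP-1 (TGANTCA) can be looked for in them on both strands. RefSeq windows of assembly GRCm38.p6, from 250 bases before to 50 after a transcription start, were present for 26 of the 34 genes, 4 of them with several starts. Stretches before the start are given for Hmgcs1 (chr13:119690171-119690350, plus strand), Idi1 (chr13:8885526-8885605, plus strand), Cyp51 (chr5:4104698-4104837, minus strand), Msmo1 (chr8:64733579-64733708, minus strand) and Abca1 (chr4:53159896-53160065, minus strand). Capitals mark motif matches, of which ATTGG and CCGCCC are the opposite strand of CCAAT and GGGCGG. The first 4 are sterol synthesis genes that rose on stimulation, and Abca1 is the exporter that fell.
Hmgcs1: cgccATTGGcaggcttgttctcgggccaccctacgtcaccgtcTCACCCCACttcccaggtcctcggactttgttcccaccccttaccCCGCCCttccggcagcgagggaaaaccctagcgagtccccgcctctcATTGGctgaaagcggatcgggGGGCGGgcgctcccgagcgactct
Idi1: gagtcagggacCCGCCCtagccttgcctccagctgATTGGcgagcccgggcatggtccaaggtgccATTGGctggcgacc
Cyp51: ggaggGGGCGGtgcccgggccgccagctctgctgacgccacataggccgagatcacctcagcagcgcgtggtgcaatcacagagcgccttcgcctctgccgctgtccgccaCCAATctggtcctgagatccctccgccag
Msmo1: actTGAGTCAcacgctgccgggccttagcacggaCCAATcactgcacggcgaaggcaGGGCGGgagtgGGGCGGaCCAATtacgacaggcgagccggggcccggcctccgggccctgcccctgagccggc
Abca1: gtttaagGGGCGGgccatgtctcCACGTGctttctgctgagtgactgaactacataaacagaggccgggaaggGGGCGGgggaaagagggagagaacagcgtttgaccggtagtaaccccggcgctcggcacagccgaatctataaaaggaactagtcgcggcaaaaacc

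The Hmgcs1 stretch holds the TCACNCCAC pattern 137 bases before the start, with CCAAT matches at 176 and 45 bases. Idi1 has CCAAT matches 45 and 14 bases before its start, and Cyp51 has one at 29 bases. Msmo1 holds an AP-1 pattern 127 bases before its start, and Abca1 an E-box at 147 bases and no CCAAT. Across the set, CCAAT was present in 20 of 26 genes (76.9%), against 41.1% of 27025 genes with a window and 42% of the 14453 genes that have both a window and a value. The 26 include Acat2 and Soat1, which have no value here, and Soat1 is among the 20. It was found in 19 of 22 rising genes (not in Acaca, Elovl6 and Fads2) and in 0 of the 2 falling genes with a window, Scap and Abca1. With 2 falling genes this split cannot tell whether CCAAT goes with the direction of change, which was not tested. Of 41 CCAAT matches, 37 lay before the start, 25 of them within 100 bases of it. Positions were not counted over all genes, and most of each window lies before the start. GGGCGG was found in 22 of 26 genes (84.6%), against 57.3% of the 14453 genes, and CACGTG in 6 (23.1%), against 10.2%. TGANTCA was found in 2 genes, Msmo1 and Dhcr7 (7.69%), against 7.54% of the 14453 genes, and TCACNCCAC in Hmgcs1 alone (3.85%), against 1.46%. The SREBP site in a longer spelling of 10 letters and an LXR element in a spelling of 16 letters matched no gene of the set. They matched only 0.0623% and 0.00692% of the 14453 genes. Spellings this rare would hardly be met among 26 genes, so these searches cannot tell whether SREBP or LXR sites are present. Sites with other letters, including any in the Abca1 stretch, were not looked for. These counts describe letters in a short window, and a match is not evidence that a factor binds there.

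**Figure D1:**
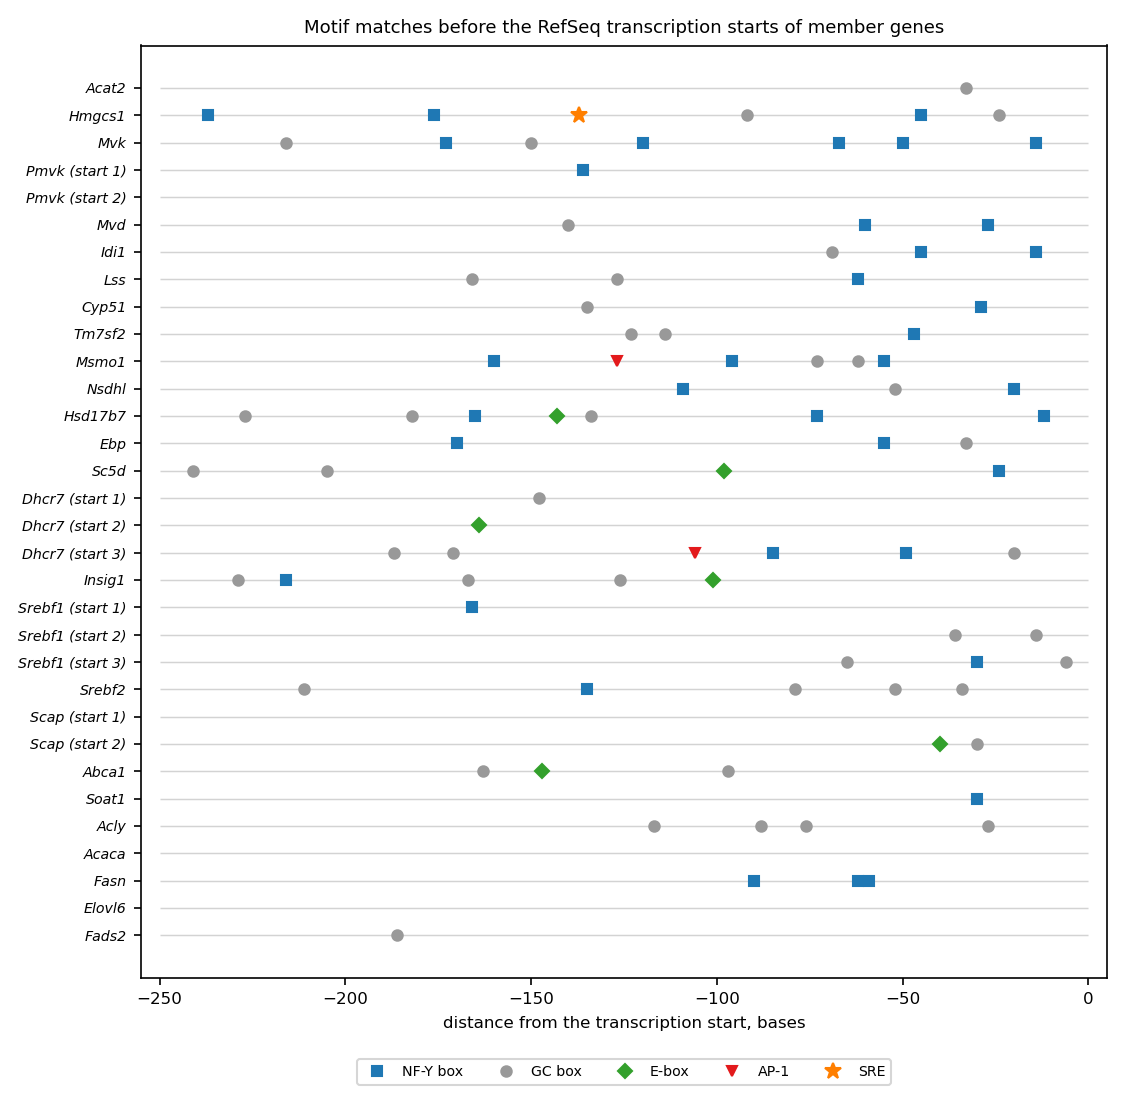
Motif matches before RefSeq transcription starts. Each line is the window before 1 start (x axis: distance from the start in bases, with 0 at the start), and symbols mark NF-Y, GC box, E-box, AP-1 and SRE matches on either strand. Of the 37 NF-Y squares before the start, 25 lie within 100 bases of it, with no such count over all genes to compare.

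The first question was how these genes change between the naive state and day 3 of stimulation. All 32 measured genes passed the test in both genotypes, against 47% of all genes in BATF-/- cells and 45.4% in wild-type cells. In each genotype 29 genes rose and 3 fell (Scap, Abca1 and Abcg1), where 23.8% of all genes rose and 23.2% fell in BATF-/- cells, and 22.4% rose and 23% fell in wild-type cells. In every gene the day 3 and naive arrays of a genotype did not overlap, which also held for 48.2% of all genes in BATF-/- cells and 58.3% in wild-type cells. The median change, day 3 minus naive, was 2.11 log2 units in BATF-/- and 2.33 in wild-type cells, against 0.05 over all genes in each genotype. A change of at least 2-fold was reached by 25 of the 32 genes in each genotype, against 10.2% of all genes in BATF-/- cells and 11.4% in wild-type cells. Changes are given as log2 difference ± SE from a limma model over all 13 arrays, and passing means an adjusted p under 0.05 over all genes.

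The sterol synthesis enzymes moved in 1 direction. All 17 measured enzymes rose, with changes between 0.71 and 3.69 in BATF-/- cells (median 2.69) and between 0.77 and 4.35 in wild-type cells (median 2.93). Hmgcs1, which makes HMG-CoA at the head of the pathway, had 12.43, 12.71, 12.72 and 12.64 in BATF-/- cells at day 3, against 9.80, 10.07 and 9.94 in BATF-/- naive cells. In wild-type cells the values were 12.68, 12.62, 12.60 and 12.54 at day 3, against 9.70 and 9.65 in naive cells. All day 3 arrays lay far above all naive arrays, and the change was 2.69 ± 0.08 in BATF-/- cells and 2.93 ± 0.09 in wild-type cells. The 3 enzymes that phosphorylate and decarboxylate mevalonate rose as well. Mvk rose by 1.82 in BATF-/- and 1.85 in wild-type cells, Pmvk by 2.73 and 3.01, and Mvd by 2.60 and 2.45, in the same order of genotypes.

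The isoprenoid and squalene steps changed more. Idi1, which isomerises the isoprenoid unit, had 11.65, 11.75, 11.75 and 11.68 in BATF-/- cells at day 3, against 8.49, 8.50 and 8.41 in BATF-/- naive cells. Wild-type arrays gave 11.78, 11.69, 11.62 and 11.61 at day 3, against 7.83 and 7.89 in naive cells. The day 3 arrays of both genotypes overlapped, while the naive arrays of the genotypes did not. Fdps joins isoprenoid units into farnesyl diphosphate. It had 12.35, 12.24, 12.28 and 12.26 in BATF-/- cells at day 3, against 9.16, 8.90 and 8.86 in BATF-/- naive cells. Among wild-type arrays it had 12.23, 12.30, 12.43 and 12.30 at day 3, against 8.32 and 8.33 in naive cells. Sqle oxidises squalene and is a control point of the pathway. It had 10.65, 10.81, 10.79 and 10.72 in BATF-/- cells at day 3, against 7.71, 7.72 and 7.54 in BATF-/- naive cells. Wild-type cells had 10.63, 10.78, 10.71 and 10.51 at day 3, against 6.91 and 6.96 in naive cells. In BATF-/- cells Idi1 rose by 3.24 ± 0.06, Fdps by 3.31 ± 0.08 and Sqle by 3.09 ± 0.08. In wild-type cells Idi1 rose by 3.82 ± 0.07, Fdps by 3.99 ± 0.09 and Sqle by 3.72 ± 0.09. Fdft1, the squalene synthase, rose by 3.25 ± 0.08 in BATF-/- and 3.55 ± 0.09 in wild-type cells. Its neighbour Lss, which closes the rings to lanosterol, rose by 2.92 ± 0.07 in BATF-/- and 3.02 ± 0.08 in wild-type cells.

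Among the enzymes after lanosterol, Cyp51 showed the largest increase in both genotypes. Over all 13 arrays its rise was also the largest of the 32 genes by the probe sets used. Without BATF-/- naive replicate 1, the fatty acid desaturase Fads2 rose more in BATF-/- cells, by 4.06 against 3.62 for Cyp51. In addition, 1 other probe set of the desaturase Scd2 rose by 3.94 in BATF-/- and 4.52 in wild-type cells, and another by 5.19 and 3.13. Cyp51, the lanosterol demethylase, had 10.54, 10.63, 10.62 and 10.58 in BATF-/- cells at day 3, against 6.75, 7.00 and 6.94 in BATF-/- naive cells. In wild-type cells the values were 10.46, 10.59, 10.50 and 10.33 at day 3, against 6.22 and 6.03 in naive cells. This was a 12.9-fold rise in BATF-/- and a 20.3-fold rise in wild-type cells, the 38th and 24th highest of 18194 genes. Msmo1, a methyl sterol oxidase, rose by 2.97 ± 0.08 in BATF-/- and 3.31 ± 0.10 in wild-type cells. Rises were smaller for Nsdhl (1.98 in BATF-/- and 2.12 in wild-type cells) and Hsd17b7 (2.11 and 2.34), which work with Msmo1 in removing methyl groups, and for the sterol reductase Tm7sf2 (2.11 and 1.96). Sc5d, a sterol desaturase, rose by 1.99 in BATF-/- and 2.21 in wild-type cells, and Dhcr7, which makes the final product on 1 branch, by 2.01 and 1.67. Ebp, a sterol isomerase, rose least, by 0.71 ± 0.07 in BATF-/- and 0.77 ± 0.08 in wild-type cells.

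The sensing genes did not all move in 1 direction. Insig1, which retains the SREBP complex in the endoplasmic reticulum and is itself an SREBP target, had 9.14, 9.35, 9.32 and 9.24 in BATF-/- cells at day 3, against 7.37, 7.51 and 7.25 in BATF-/- naive cells. Wild-type arrays gave 9.46, 9.39, 9.35 and 9.27 at day 3, against 7.05 and 7.04 in naive cells. Insig1 rose by 1.88 ± 0.08 in BATF-/- and 2.32 ± 0.09 in wild-type cells. Srebf2, the SREBP gene tied most closely to sterol synthesis, rose by 1.28 ± 0.06 in BATF-/- and 1.52 ± 0.07 in wild-type cells, and Srebf1, tied to fatty acid synthesis, by 0.97 in each genotype. Scap, the escort of both, had 8.95, 8.94, 8.90 and 9.0 in BATF-/- cells at day 3, against 9.37, 9.42 and 9.34 in BATF-/- naive cells. Among wild-type arrays it had 8.76, 8.90, 8.78 and 8.91 at day 3, against 9.56 and 9.52 in naive cells. Scap fell by 0.43 ± 0.06 on the log2 scale in BATF-/- cells and fell by 0.70 ± 0.06 in wild-type cells.

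The exporters fell while the carrier Stard4 rose. Abca1, which passes cholesterol out of the cell, had 5.03, 4.49, 4.64 and 4.29 in BATF-/- cells at day 3, against 8.90, 9.02 and 9.19 in BATF-/- naive cells. Wild-type cells had 4.59, 4.77, 4.45 and 5.03 at day 3, against 9.26 and 9.05 in naive cells. The 8 day 3 arrays lay around 4.35, the level under which the dimmest 40% of probe sets average, and none reached the naive range. The difference was -4.43 ± 0.16 in BATF-/- and -4.45 ± 0.19 in wild-type cells, with no fold given because the day 3 values lay so near the dim level. Both other Abca1 probe sets averaged under that level (3.58 and 2.97), and the mean of all 3 changed by -1.89 in BATF-/- and -1.71 in wild-type cells. Abcg1, which exports cholesterol to lipoproteins, had 9.20, 9.0, 8.90 and 9.07 in BATF-/- cells at day 3, against 9.66, 10.20 and 10.07 in BATF-/- naive cells. In wild-type cells the values were 8.91, 8.89, 8.98 and 9.02 at day 3, against 10.26 and 10.28 in naive cells. Abcg1 fell by 0.93 ± 0.11 on the log2 scale in BATF-/- cells and fell by 1.32 ± 0.13 in wild-type cells. Stard4, which carries cholesterol between membranes, rose by 2.95 ± 0.08 in BATF-/- and 3.25 ± 0.09 in wild-type cells.

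Fatty acid genes split by step. The 3 genes that make palmitate rose modestly: Acly, which supplies cytosolic acetyl-CoA, by 0.80 ± 0.06 in BATF-/- and 0.60 ± 0.07 in wild-type cells; Acaca, which makes malonyl-CoA, by 0.87 ± 0.06 and 0.84 ± 0.07; and Fasn, the synthase, by 0.89 ± 0.07 and 0.69 ± 0.08. The desaturases rose more. Scd2, which puts the first double bond into saturated fatty acids, had 13.34, 13.33, 13.30 and 13.32 in BATF-/- cells at day 3, against 9.85, 10.02 and 10.26 in BATF-/- naive cells. Wild-type arrays gave 13.46, 13.38, 13.47 and 13.24 at day 3, against 9.67 and 9.74 in naive cells. Scd2 rose by 3.28 ± 0.09 in BATF-/- and 3.68 ± 0.10 in wild-type cells, and its paralog Scd1 by 2.60 ± 0.17 and 3.75 ± 0.19. Fads1 and Fads2, which desaturate polyunsaturated fatty acids, rose by 2.40 ± 0.14 and 3.46 ± 0.34 in BATF-/- cells and by 2.34 ± 0.16 and 3.37 ± 0.38 in wild-type cells. Elovl6, which lengthens palmitate, rose by 1.10 ± 0.19 in BATF-/- and 0.91 ± 0.21 in wild-type cells.

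**Figure D2:**
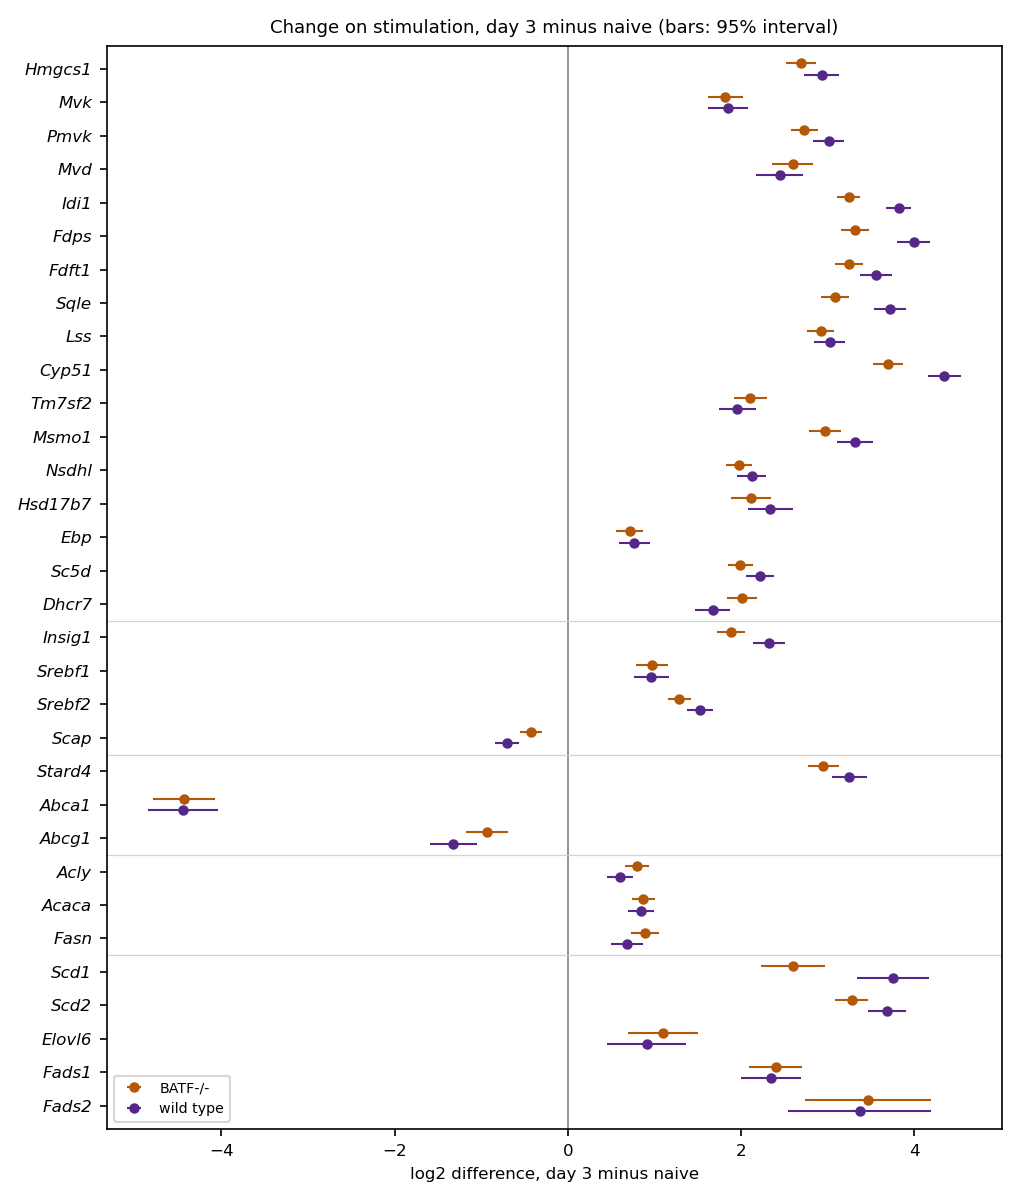
Change on stimulation in each genotype. The x axis is the log2 difference, day 3 minus naive, with points for BATF-/- above wild type in each row and bars for the 95% interval. Of the 32 genes, 29 lie right of 0 in both genotypes, and Scap, Abca1 and Abcg1 lie left of it.

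Other features of the arrays moved with stimulation. The mean of 5 markers of dividing cells was between 12.13 and 12.16 in BATF-/- and between 12.12 and 12.15 in wild-type cells at day 3, against 9.45 to 10.70 in BATF-/- and 9.69 to 9.95 in wild-type naive cells. The mean of the B cell markers was between 4.73 and 4.93 in BATF-/- and between 4.78 and 4.94 in wild-type cells at day 3, against 7.04 to 7.46 in BATF-/- and 6.15 to 6.63 in wild-type naive cells. Their part in the changes of the lipid genes was not tested. Without BATF-/- naive replicate 1 all 32 genes still passed in both genotypes.

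Other probe sets of the same genes bore on these changes. Of 42 further probe sets, 9 averaged under the dim level, and of the other 33, 30 in BATF-/- cells and 31 in wild-type cells passed in the direction of the probe set used, with 0 passing in the other. A second Fdft1 probe set rose by 3.10 in BATF-/- and 3.23 in wild-type cells, while 2 low ones changed by -0.13 and -0.06 in BATF-/- cells and by -0.13 and -0.12 in wild-type cells and did not pass. The probe sets used for 4 genes (Hmgcs1, Fdft1, Hsd17b7 and Acly) and for 2 others (Mvd and Lss) carry design suffixes of sets whose probes may match further transcripts.

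Neighbouring lipid genes outside the set gave a mixed picture. Over all genes, 23.8% rose and 23.2% fell in BATF-/- cells, and 22.4% rose and 23% fell in wild-type cells. Of 17 measured genes of isoprenoid and sterol metabolism, 4 rose and 9 fell in BATF-/- cells, and 5 rose and 9 fell in wild-type cells. Scarb1, a lipoprotein receptor, rose by 1.48 in BATF-/- and 1.61 in wild-type cells. Mylip, an LXR target that marks lipoprotein receptors for degradation, fell by 2.06 in BATF-/- cells and fell by 2.41 in wild-type cells. Of 25 genes of fatty acid and glycerolipid synthesis, 15 rose and 4 fell in BATF-/- cells, and 14 rose and 2 fell in wild-type cells. Acsl3, which activates fatty acids, rose by 2.55 in BATF-/- and 2.57 in wild-type cells, and Slc25a1, the citrate carrier that feeds Acly, by 1.56 and 1.63. Of 15 genes of fatty acid oxidation, 8 rose and 1 fell in BATF-/- cells, and 7 rose and 4 fell in wild-type cells. Acadl, a dehydrogenase of that pathway, rose by 1.07 in BATF-/- and 1.31 in wild-type cells. Between genotypes 0 genes of these lists passed the limma test in naive cells or at day 3, against 1.08% and 1.37% of all genes. An unadjusted p under 0.05 was found for 1 sterol, 5 fatty acid synthesis and 0 oxidation genes in naive cells, where 13.6% of all genes had one, and for 2, 5 and 1 at day 3, where 12.6% had one.

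**Figure D3:**
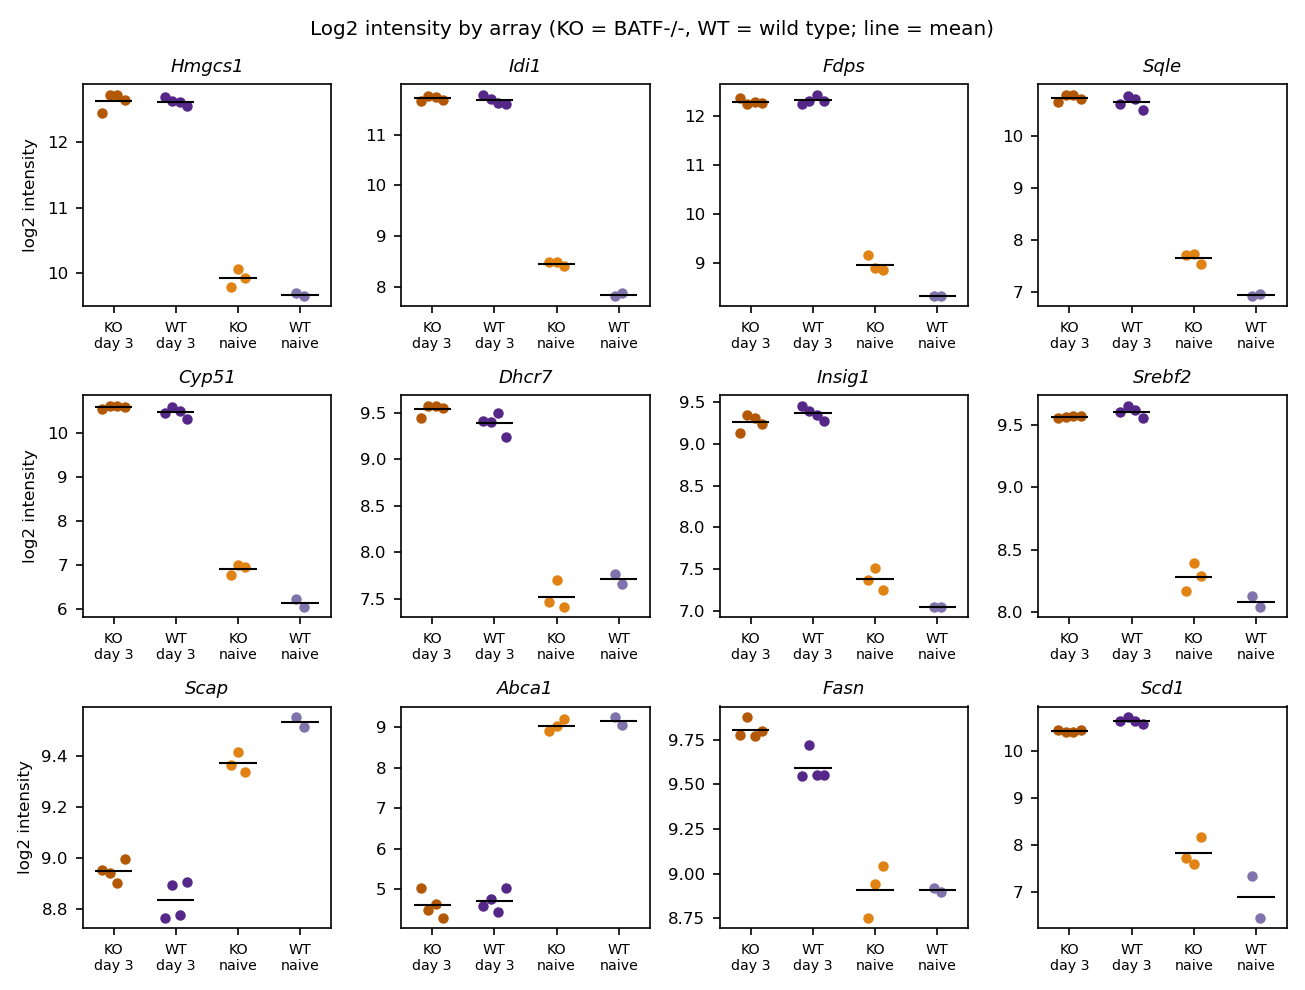
Log2 intensity of 12 genes on each array. Points are arrays, horizontal lines are group means, and each panel has its own y axis (log2 intensity); KO is BATF-/- and WT is wild type. Day 3 and naive points of each genotype are apart in every panel. Between naive genotypes Idi1, Fdps, Sqle, Cyp51 and Scd1 passed the limma test, with a Scd1 call that depended on the arrays kept. Naive points of the genotypes are also apart in some panels of genes that did not pass, such as Scap.

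The second question was whether loss of BATF changed these genes at day 3. Of the 32 genes, 0 passed the limma test, against 1.37% of all genes, and 2 had an unadjusted p under 0.05, against 12.6% of all genes. Those were Acaca, with 8.68, 8.59, 8.61 and 8.60 in BATF-/- cells, against 8.45, 8.44, 8.41 and 8.45 in wild-type cells, and Fasn, with 9.78, 9.88, 9.77 and 9.80 in BATF-/- cells, against 9.55, 9.72, 9.55 and 9.55 in wild-type cells. Acaca had a difference of 0.18 ± 0.06 (adjusted p = 0.172) and Fasn of 0.21 ± 0.07 (adjusted p = 0.178). Including them, 5 genes had groups that did not overlap, against 12.8% of all genes. The others were Elovl6 (0.18) and Fads2 (0.21), higher on all BATF-/- arrays, and Scd1, which had 10.45, 10.40, 10.40 and 10.45 in BATF-/- cells, against 10.64, 10.73, 10.62 and 10.56 in wild-type cells. Scd1 differed by -0.21 ± 0.16, with an adjusted p of 0.662.

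Differences at day 3 ran from -0.21 to 0.21 over the probe sets used for the 32 genes, with a median of 0.09, against 0.01 over all genes. The 95% interval stayed within 0.5 log2 units of 0 for 29 genes, and reached further for Scd1, Elovl6 and Fads2. These intervals use a spread pooled with the naive arrays, so their width is not that of the day 3 arrays alone. Sterol synthesis enzymes had a median difference of 0.09 (-0.08 to 0.15). The mean of the neutrophil markers lay between 4.04 and 4.12 on all 8 day 3 arrays. With day 3 arrays fitted alone 1 gene passed, Scd1 (-0.21, adjusted p = 0.0448), where 3.79% of all genes did. With array quality weights 2 passed, Acaca (0.17, adjusted p = 0.0301) and Fasn (0.21, adjusted p = 0.0355), where 7.18% of all genes did. Other probe sets gave other values for the desaturases: a second Scd1 probe set differed by 0.04 ± 0.18, and another Scd2 probe set by 1.51 ± 0.44 (adjusted p = 0.176 over probe sets), against -0.07 for the one used.

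The third comparison was BATF-/- against wild type in naive cells. Of the 32 genes, 5 passed, all higher in BATF-/- cells, against 0.813% of all genes passing as higher and 1.08% passing in either direction. They were the sterol synthesis genes Idi1, Fdps, Sqle and Cyp51, and the desaturase Scd1. From the values given above, all BATF-/- naive arrays exceeded both wild-type naive arrays in Idi1, Fdps, Sqle and Cyp51. Idi1 was higher by 0.61 ± 0.07 (adjusted p = 0.00147), Fdps by 0.64 ± 0.09 (adjusted p = 0.00442), Sqle by 0.72 ± 0.09 (adjusted p = 0.00199) and Cyp51 by 0.77 ± 0.09 (adjusted p = 0.00175), which is 1.53-fold to 1.71-fold. Scd1 had 7.73, 7.60 and 8.16 in BATF-/- naive cells, against 7.33 and 6.44 in wild-type naive cells, a difference of 0.94 ± 0.20 (adjusted p = 0.049). Its wild-type arrays lay further apart than its BATF-/- arrays.

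Other genes stood nearer to the threshold or below it. Fdft1 had 7.99, 8.15 and 8.28 in BATF-/- naive cells, against 7.73 and 7.72 in wild-type naive cells, a difference of 0.41 ± 0.09 that did not pass (adjusted p = 0.0522). Pmvk, next in order, differed by 0.37 ± 0.09 (adjusted p = 0.0668). In 19 of the 32 genes the naive groups did not overlap (24.5% of all genes), and in 16 of these the BATF-/- arrays were the higher ones (11.8% of all genes). The median difference over the set was 0.16, against 0.00 over all genes, and over sterol synthesis enzymes 0.26. Insig1 (0.33, adjusted p = 0.127), Msmo1 (0.35, adjusted p = 0.148) and Scd2 (0.34, adjusted p = 0.173) had positive values that did not pass. So had Srebf2 (0.20), while the exporters Abca1 (-0.12) and Abcg1 (-0.30) and the palmitate genes Acly (-0.10), Acaca (0.15) and Fasn (0.01) did not pass either. Elovl6, Fads1 and Fads2 had 9.23, 7.13 and 6.89 on BATF-/- naive replicate 1, above every other naive array.

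**Figure D4:**
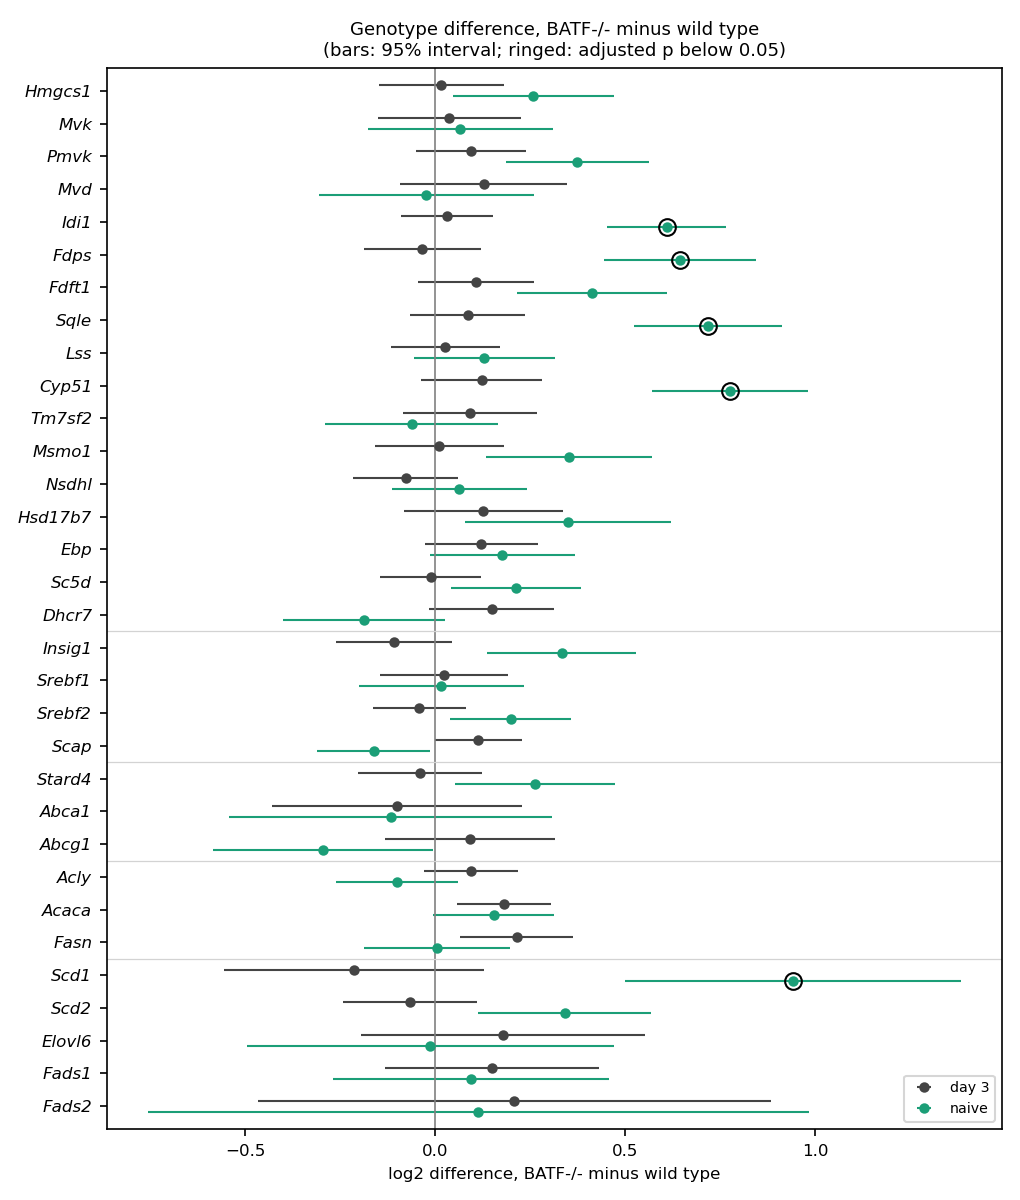
Genotype difference, BATF-/- minus wild type, for each gene. The x axis is the log2 difference, with day 3 above naive in each row, bars for the 95% interval and rings where the adjusted p was under 0.05. The 5 ringed points are naive values of Idi1, Fdps, Sqle, Cyp51 and Scd1, and 0 day 3 points are ringed.

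Markers of other cells also differed between the naive groups. The mean of 9 B cell markers was 7.10, 7.04 and 7.46 on the BATF-/- arrays, against 6.63 and 6.15 on the wild-type arrays, and 4 of the 9 passed as higher. The mean of 4 NK cell markers was 8.48, 7.20 and 7.67 on the BATF-/- arrays, against 6.79 and 6.64 on the wild-type arrays, and 1 of the 4 passed. Of 8 neutrophil markers 0 passed, and of 4 erythroid markers 1 did. The mean of 7 monocyte and macrophage markers was 7.37, 5.89 and 6.40 on the BATF-/- arrays, against 6.05 and 5.97 on the wild-type arrays, and 0 passed. All 8 CD8 T cell markers had lower group means in BATF-/- naive cells, and 0 passed. Their mean was 11.46, 12.04 and 11.97 on the BATF-/- arrays, against 12.09 and 11.92 on the wild-type arrays. The low value was that of replicate 1, and the other BATF-/- naive arrays lay within the wild-type range. Markers of dividing cells averaged 10.70, 9.45 and 9.82 on the BATF-/- arrays, against 9.69 and 9.95 on the wild-type arrays. The mean of the 17 sterol synthesis enzymes was 7.64, 7.76 and 7.69 on the BATF-/- arrays, against 7.46 and 7.37 on the wild-type arrays. The part of RNA from B, NK, myeloid or other cells in the differences of the lipid genes was not tested.

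**Figure D5:**
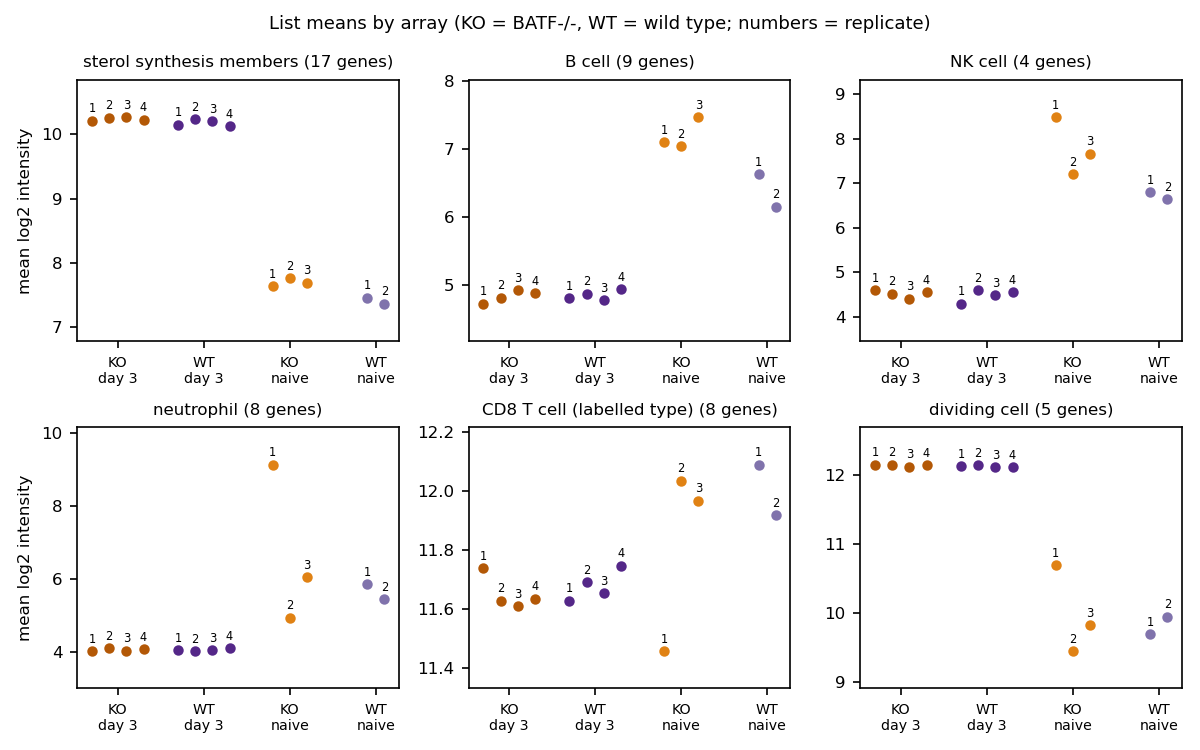
Mean log2 intensity of gene lists on each array. Panels show the sterol synthesis enzymes and markers of B cells, NK cells, neutrophils, CD8 T cells and dividing cells (y axis: mean log2 intensity), with numbers for replicates. BATF-/- naive replicate 1 has the highest neutrophil mean, 9.13, and the lowest CD8 T cell mean, 11.46.

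The naive calls differed in how far they held. Without BATF-/- naive replicate 1, Idi1 differed by 0.60, Fdps by 0.55, Sqle by 0.69 and Cyp51 by 0.85, with adjusted p between 0.000842 and 0.00452. Scd1 then had 0.99 (adjusted p = 0.0509), and Fdft1 (0.49), Scd2 (0.44) and Elovl6 (-0.35) passed. Idi1, Fdps, Sqle and Cyp51 passed in all 13 fits that left out 1 array. Scd1 passed in 2 of them, at 1.39 when wild-type naive replicate 1 was left out and at 1.06 when BATF-/- naive replicate 2 was. It was 0.50 without wild-type naive replicate 2, and 0.78 when BATF-/- naive replicate 3 was dropped, neither of which passed, and it also lost the call without any single day 3 array (0.94, adjusted p at most 0.08). Fitted with limma on the 5 naive arrays alone, 0 of the 32 genes passed and 10 had an unadjusted p under 0.05 (6.33% of all genes), with adjusted p of 0.283 for Sqle, 0.305 for Idi1, 0.314 for Cyp51, 0.496 for Fdps and 0.776 for Scd1. Only 1 gene of the 18194 passed in that fit, so the calls rest on a spread pooled with the day 3 arrays. A second Idi1 probe set differed by 0.82 ± 0.18 (adjusted p = 0.0571 over probe sets) and a second Cyp51 probe set by 0.59 ± 0.11 (adjusted p = 0.0345), while the dimmest of the 3 Cyp51 probe sets differed by -0.18 ± 0.17. A second Scd1 probe set differed by 0.40 ± 0.23 (adjusted p = 0.492). Over all 13 arrays, other Fdft1 probe sets differed by 0.10 ± 0.11, -0.02 ± 0.20 and -0.08 ± 0.12. Other Scd2 probe sets differed by 0.30 ± 0.16 and -0.55 ± 0.57.

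The last comparison asked whether the change on stimulation itself differed between genotypes. Of the 32 genes, 4 passed, all with a smaller rise in BATF-/- cells, against 0.484% of all genes passing in that direction and 0.649% in either. Idi1 differed by -0.58 ± 0.09 (adjusted p = 0.0123), Fdps by -0.68 ± 0.12 (adjusted p = 0.0202), Sqle by -0.63 ± 0.11 (adjusted p = 0.0271) and Cyp51 by -0.65 ± 0.12 (adjusted p = 0.0298). Scd1 had -1.16 ± 0.26 and did not pass (adjusted p = 0.0751). This comparison uses the same naive and day 3 arrays as the 2 before it, so its values are not separate evidence. For Idi1 the day 3 difference was 0.03 and the naive one 0.61; for Cyp51 they were 0.12 and 0.77. For Sqle they were 0.09 and 0.72, and for Fdps -0.03 and 0.64.

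These calls were less stable than the naive ones. Of 13 fits that left out 1 array, Idi1 passed in 12, Fdps in 8, Sqle in 5 and Cyp51 in 4. Without BATF-/- naive replicate 1 the same 4 genes passed, and Elovl6 passed as well with a larger rise in BATF-/- cells (0.53, adjusted p = 0.0118). The count of passing genes was also 5 without BATF-/- naive replicate 2, all with a smaller rise, 4 without wild-type day 3 replicate 4, and 3 without BATF-/- naive replicate 3 or BATF-/- day 3 replicate 1. It was 2 with wild-type naive replicate 1 left out or wild-type day 3 replicate 1, 2 or 3, and 1 without wild-type naive replicate 2 or BATF-/- day 3 replicate 2, 3 or 4. Among genes that did not pass, Dhcr7 (0.34 ± 0.12), Abcg1 (0.39 ± 0.17) and Scap (0.28 ± 0.09) had positive values, and Insig1 (-0.44 ± 0.12), Scd2 (-0.41 ± 0.13) and Msmo1 (-0.34 ± 0.13) negative ones. The Scd2 value depended on the probe set. Another Scd2 probe set had the opposite sign, and over the settings that kept all arrays Scd2 ran from -0.58 to 0.36.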

How the data were processed

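RNA from 13 samples was measured on Affymetrix arrays. The deposited values are probe set intensities on a linear scale, summarised by the authors with RMA, per the submitters' processing notes; no version is given. They were converted to log2 here and not normalised again. Of 45101 probe sets, 34958 have 1 gene in the platform annotation, 932 several and 9211 none. One probe set per gene, that with the highest mean over the arrays, left 18194 genes. No dim probe set was removed.

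A model of the 4 group means over the 13 arrays was fitted in limma 3.58.1, under R 4.3.3, by lmFit and eBayes. It had 9 residual degrees of freedom and 3.702 prior ones. The tests were two-sided, with Benjamini-Hochberg adjustment over all genes of a comparison and a threshold of 0.05, and the code was checked on data with known changes. Precision is limited by how many arrays there are. Replicate numbers were not taken to pair arrays: deviations of arrays with the same number correlated between -0.258 and 0.039 across genotypes and between -0.06 and 0.032 across states. Genes named are all members, and of the other lists those among the 3 highest or lowest that passed. The members and lists were chosen with earlier results of these data known. Alternatives covered normalisation, the choice of probe set, dim probe sets, the variance model, array weights, a replicate block, the groups fitted and leaving out each array.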

Additional observations from a re-analysis of the deposited data

Results flagged for a closer look

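Among 64 groups of 4 day 3 arrays checked, 3 had 1 array far from the others relative to the range of the group, and chance does this in about 1 in 20 groups. Lss was 9.73 on BATF-/- day 3 replicate 1, against 9.91 on the nearest other array of that group. Hsd17b7 was 8.48 on the same array, against 8.65 on the nearest other. Fasn was 9.72 on wild-type day 3 replicate 2, against 9.55 on the nearest other.

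The change on stimulation differed between the genotypes for 4 genes by the interaction term of the limma model. The difference, BATF-/- minus wild type, was -0.58 for Idi1, -0.68 for Fdps, -0.63 for Sqle and -0.65 for Cyp51. As described above, these calls changed with the arrays kept, and 0 genes of the set passed with a replicate block. Of the 33 further probe sets of the set that averaged above the dim level, 0 passed in this comparison.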

How the results depend on the processing

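The stimulation calls held for all 32 genes in both genotypes in each of the 13 fits without 1 array (32 to 32) and under every other setting, apart from the 7 genes in each genotype that stayed under 2-fold. No called value changed sign under any setting.

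Of the naive comparison, 5 genes passed. The count was 2 when each gene's probe sets were averaged, 3 with the mean of those above the dim level (a setting chosen after seeing the data), 0 with the naive arrays alone and 0 at a minimum of 2-fold, and 4 to 7 without 1 array. Averaged over its probe sets, Fdps had 0.30 (adjusted p = 0.077), Cyp51 0.39 (adjusted p = 0.0689) and Scd1 0.67 (adjusted p = 0.186); the second Fdps probe set averaged 2.40, under the dim level. Of the day 3 comparison, 0 genes passed; the count was 2 with array weights and 1 with day 3 arrays alone, and 0 to 0 without 1 array. For the difference of the changes, 4 genes passed; the count was 2 with either mean of probe sets, 7 with array weights, 0 at a minimum of 2-fold, and 1 to 5 without 1 array.

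The replicate block gave 4 genes in naive cells, with the call of Scd1 lost (0.90, adjusted p = 0.154), and 0 genes for the difference of the changes, with adjusted p of 0.0553 for Idi1 and 0.0606 for Sqle. The labels do not say whether the numbers pair the arrays, so these are counts under another model that the labels neither back nor exclude.

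Over all genes, the naive count was 196, and it was 459 with array weights, 87 with the block, 1 with naive arrays alone, 56 at a minimum of 2-fold and 97 to 627 without 1 array. At day 3 it was 250, and 1306, 125, 689 and 30 under the same settings (day 3 arrays alone), and 122 to 563 without 1 array. For the difference of the changes it was 118, and 542 with array weights, 50 with the block, 54 at 2-fold and 58 to 283 without 1 array. At 2-fold the stimulation counts were 1854 in BATF-/- and 2072 in wild-type cells, against 8546 and 8259 without it.

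With 2 wild-type naive arrays, leaving out 1 leaves a lone array that is assumed to vary like the other groups. The median SD over the 32 genes was 0.141 on BATF-/- naive arrays, 0.0608 on wild-type naive arrays, 0.0559 on BATF-/- and 0.0813 on wild-type arrays at day 3, while the tests share 1 pooled spread.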
